A study of Rattus norvegicus with 23 samples.

Results

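The genes described here are 46 rat genes that recognise, remove, bypass or signal the kinds of DNA damage that platinum drugs and fluorouracil leave. They were listed by name for their known roles, with earlier results of these data known, and were meant to be present and expressed in the count table. Of the 46, 45 had a row in the count table, and all 45 passed the filter on low counts. Of all 28913 rows, 15079 passed. Because the genes were meant to be expressed, their passing was largely set by that choice and does not set them apart. The remaining gene, Ercc4, which encodes the partner of Ercc1 in a repair nuclease, had no row under that symbol and was not analysed here.

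Libraries were made from the livers of Sprague Dawley rats in a study that models portosinusoidal vascular disease, which affects small liver vessels. Control (6 libraries) stands for rats that had no treatment. The rats of LPS (7 libraries) had a laparotomy and an indwelling catheter to the portal system, through which they were given lipopolysaccharide, from the outer membrane of bacteria, at 1 mg/kg 2 times per week for 8 weeks. Those of Selfox (10 libraries) were kept for 8 weeks on a selenium-enriched diet and had 8 weekly intravenous injections of oxaliplatin (3 mg/kg), fluorouracil (25 mg/kg) and folinic acid (45 mg/kg). Surgery and LPS, and diet and drugs, cannot be told apart in these groups, no age or sex is given, and the time from the last injection to the collection of liver is not given in the sources used here. The labels do not say that each library is a separate rat, so p-values measure the spread between libraries.

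Oxaliplatin binds to DNA bases and links neighbouring purines on one strand, and more rarely links both strands. Single-strand platinum adducts are removed by nucleotide excision repair, crosslinks between strands by the Fanconi anaemia pathway with homologous recombination, and polymerases of translesion synthesis can copy past what is left. Fluorouracil leads to uracil and fluorouracil in DNA, which glycosylases cut out at the start of base excision repair. In liver most hepatocytes rest outside the cell cycle, where excision repair and end joining can work but homologous recombination is limited to dividing cells.

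Values are counts per M (mega, CPM) of each library's scaled total, and differences are log2 fold changes from one edgeR quasi-likelihood fit over all genes, with standard error (SE). A gene is said to have risen, fallen or changed where its Benjamini-Hochberg adjusted p over the 15079 genes was below 0.05. Total counts ranged from 31.9 to 53.8 M in Control, from 70.4 to 79.2 M in LPS and from 65.1 to 74.8 M in Selfox. Hepatocyte markers were high in every library (134912 to 251637 CPM summed over 12 markers). Their median sum was 194018 CPM in Control, 189017 in LPS and 165399 in Selfox. In Selfox 3 of the 12 rose and 4 fell (58.3%, beside 29.1% of all genes tested), and in LPS 1 rose (8.33%, beside 14.7%). Kupffer cell markers, of resident liver macrophages, summed to 788 to 1071 CPM in Control, 681 to 1051 in LPS and 285 to 445 in Selfox, and all 11 tested fell in Selfox; none was at 0. Some libraries stood apart by the daily clock. Dbp, an output gene of the clock, was above Arntl, a core clock gene, in Selfox 8 (by a near tie), in LPS 5, LPS 6 and LPS 7 and in Control 55; they are called late-clock libraries, and calls lost or gained without them are given beside the results. In whole tissue, fewer cells of a type and less RNA per cell cannot be told apart.

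Repair genes moved little and in both directions. In LPS livers 6 of 45 changed: Rev1, Atm, Msh3 and Prkdc rose, and Parp1 and Nbn fell. That is 13.3% of the 45, beside 14.7% of all genes tested (7.71% higher and 6.99% lower). In Selfox livers 13 of 45 changed: Xpc, Fancc, Xrcc1, Polb and Prkdc rose, and Rad23b, Ercc2, Ercc5, Rev1, Polh, Tdg, Apex1 and Nbn fell. That is 28.9% of the 45, beside 29.1% of all genes tested (14.2% higher and 14.9% lower). Neither share lies far from its background. None of the 45 changed by 2-fold or more in any comparison, beside 3.00% of all genes tested in LPS, 5.22% in Selfox and 4.05% between the models. At such shares few of 45 genes would be expected to, so this does not set them apart. Of the 111 further repair genes described below, 2 did in LPS, 0 in Selfox and 5 between the models. The median log2 fold change over the 45 was 0.03 in LPS and -0.04 in Selfox, beside 0.01 and 0.01 over all genes tested, and the median size of the change was 0.18 and 0.20, beside 0.19 and 0.23. With upper-quartile scaling 1 repair gene rose and 4 fell in LPS, in place of 4 and 2. The count of 6 in LPS was 3 without Control 46, 49 or 52 or LPS 6, the count of 13 in Selfox was 8 without Control 41, and over all genes the LPS count was 1409 without Control 49, in place of 2217.

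Both comparisons use the same 6 Control libraries, so their values are given side by side and are not independent of each other. Of the 45, 3 genes changed in both: Nbn fell in both, Prkdc rose in both, and Rev1 rose in LPS and fell in Selfox. A further 3 changed in LPS alone, 10 in Selfox alone and 29 in neither, counts that do not test whether the models differ. The comparison of Selfox with LPS tests that directly. There 5 of 45 changed, 11.1% beside 14.5% of all genes tested (6.86% higher and 7.64% lower): Xpc was higher in Selfox, and Rev1, Msh3, Ung and Apex1 were lower. Without LPS 6 or LPS 7 the count was 3.

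Leaving out the 5 late-clock libraries changed which genes passed and the balance of rises and falls in each comparison. In LPS 1 repair gene rose and 3 fell, in place of 4 and 2: Rev1, Atm and Msh3 no longer passed, and Pms2 fell. In Selfox 10 rose and 6 fell, in place of 5 and 8. There Ddb2, Brca1, Rad50, Xrcc5 and Xrcc6 rose and Parp1 fell, while Rad23b, Ercc5 and Polh no longer passed. Between the models 3 were higher in Selfox and 2 lower, in place of 1 and 4: Brca1, Rev3l and Rad50 were higher, and Xpc, Msh3 and Ung no longer passed. Over the 15239 genes tested in this fit, 1163 rose and 1046 fell in LPS, 2464 and 2456 did in Selfox, and 694 were higher and 740 lower in Selfox than in LPS.

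**Figure D1:**
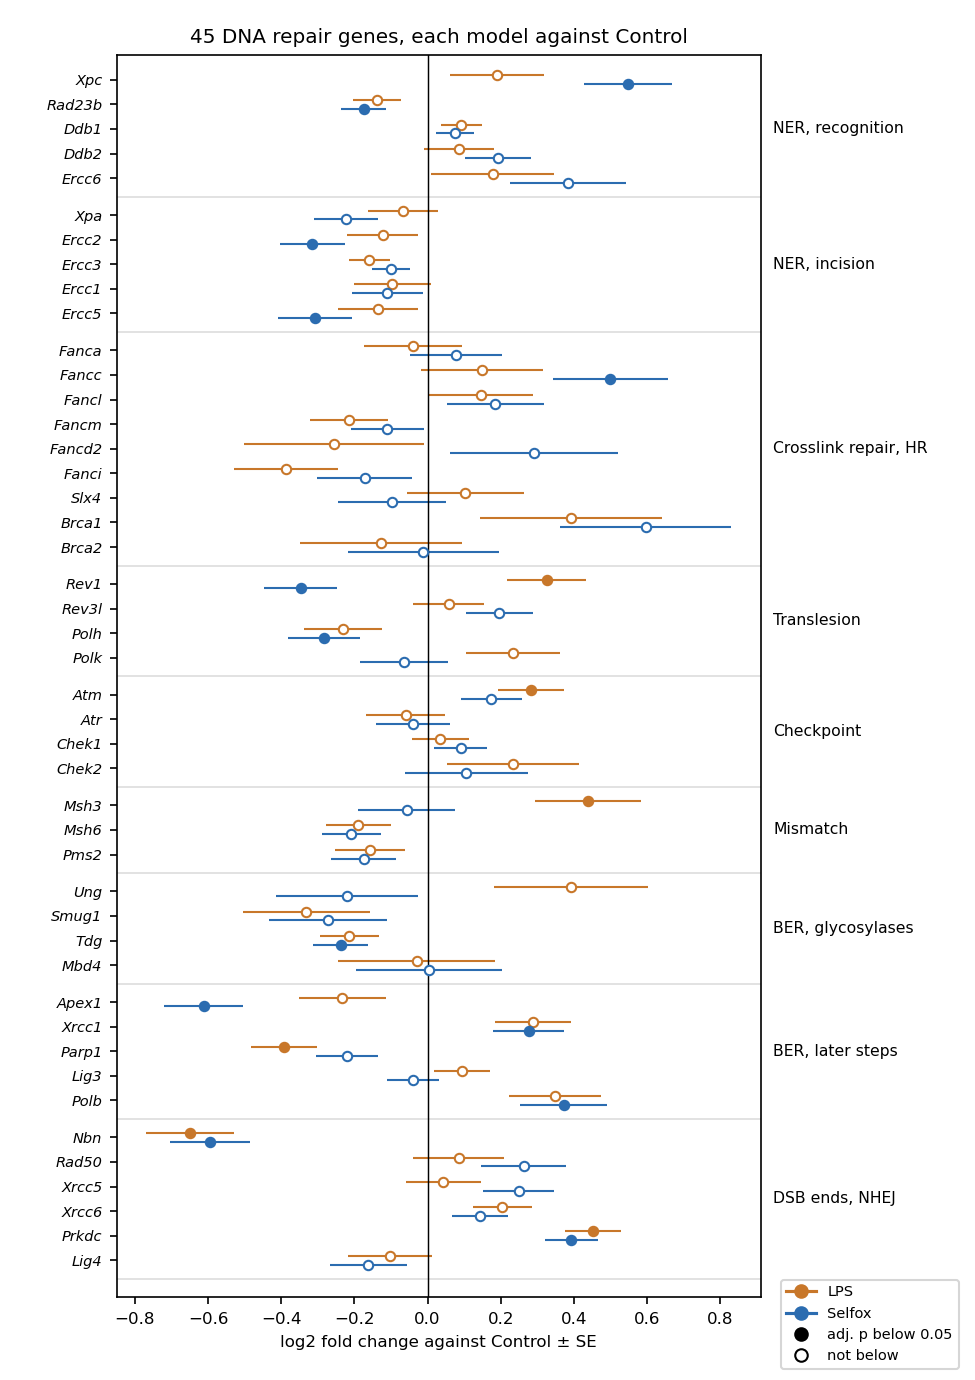
Log2 fold change ± SE against Control (horizontal axis) of 45 DNA repair genes in LPS (orange) and Selfox (blue), in blocks by repair role (NER, nucleotide excision repair; HR, homologous recombination; BER, base excision repair; DSB, double-strand break; NHEJ, non-homologous end joining). Filled points have an adjusted p below 0.05; they lie between -0.65 and 0.45 in LPS and between -0.61 and 0.55 in Selfox.

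Nucleotide excision repair of the whole genome starts with Xpc, which senses the distorted helix, and its partner Rad23b, which also escorts proteins to the proteasome. Xpc rose in Selfox and Rad23b fell. Xpc stood at 30.02, 36.7 and 40.7 CPM in Control (lowest, median and highest library), 30.001, 37.7 and 53.5 in LPS and 40.8, 50.005 and 67.5 in Selfox. All 10 Selfox libraries lay above every Control library, while the LPS libraries spread over both ranges, with LPS 1, LPS 2 and LPS 3 above every control. Its log2 fold change in Selfox was 0.55 ± 0.12 (adjusted p = 0.00170), a fold of 1.46, and in LPS it was 0.19 ± 0.13 (adjusted p = 0.342). Selfox was also above LPS, by 0.36 ± 0.11 (adjusted p = 0.0360). This last call was lost in 8 of 17 fits that left out 1 library (without LPS 4, 5, 6 or 7, or Selfox 3, 6, 7 or 9; highest adjusted p 0.0854), and with the 5 late-clock libraries left out it was 0.23 (adjusted p = 0.221). The rise over Control held in each of the 16 fits that left out 1 library and in the 10 other settings tried.

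The 300 bases around the start of Xpc in RefSeq (GRCr8, chr4:125578035-125578334, minus strand, 250 bases before and 50 after the start) are shown because Xpc rose in Selfox in every fit. Capitals mark the GC box, GGGCGG on either strand, a letter pattern that Sp1-family factors can bind. It occurs 2 times here, in 33.1% of 33469 rat promoters of this length, and in 27 of the 44 entries found for 39 of the 46 repair genes. Ddb2, Xpa, Chek2, Smug1, Polb, Nbn and Prkdc had no match.
Xpc: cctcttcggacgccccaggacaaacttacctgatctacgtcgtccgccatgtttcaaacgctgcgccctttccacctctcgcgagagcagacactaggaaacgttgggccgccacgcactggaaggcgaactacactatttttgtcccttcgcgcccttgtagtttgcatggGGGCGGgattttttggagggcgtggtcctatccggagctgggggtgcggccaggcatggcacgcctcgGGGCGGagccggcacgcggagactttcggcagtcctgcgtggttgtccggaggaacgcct

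Rad23b differed by much less but as evenly. Its libraries held 222, 228 and 247 CPM in Control, 182, 209 and 237 in LPS and 181, 213 and 219 in Selfox. All 10 Selfox libraries lay below every Control library, at a log2 fold change of -0.17 ± 0.06 (adjusted p = 0.0351). The call was lost in 8 of 16 fits that left out 1 library (Selfox 4, 7, 9 or 10, or Control 40, 41, 46 or 52; highest adjusted p 0.101), without a filter on low counts and without the late-clock libraries. In LPS the difference was -0.14 ± 0.07 (adjusted p = 0.167). In Selfox, groups that do not overlap were found for 4.91% of all genes tested, and among the 45 repair genes for Xpc and Rad23b only.

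The other recognition genes did not pass the test against Control with all libraries. Ddb1 and Ddb2, the subunits of a damage sensor that helps Xpc, had log2 fold changes of 0.09 ± 0.06 and 0.09 ± 0.10 in LPS and 0.08 ± 0.05 and 0.19 ± 0.09 in Selfox. Ddb2 is also a target gene of p53, and its highest control, Control 55 at 9.34 CPM, lay above all 10 Selfox libraries, 6.73, 7.68 and 9.06 CPM. Its difference in Selfox was 0.31 without Control 55 (adjusted p = 0.00304). It was 0.28 when the late-clock libraries were left out (adjusted p = 0.00767), and it also passed with limma voom. Ercc6, the Cockayne syndrome protein that starts repair where RNA polymerase has stalled, was uneven in Selfox. It stood at 38.5 CPM in Selfox 9 and 29.996 in Selfox 1, while the lowest Selfox library held 15.1 and the Control libraries 15.97 to 18.9. Its log2 fold change was 0.38 ± 0.16 (adjusted p = 0.0718).

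After recognition, the helicases Ercc2 and Ercc3 of the transcription factor TFIIH open the helix, Xpa verifies the damage, and Ercc5 and the Ercc1 nuclease cut the strand on either side. All 5 genes measured had negative log2 fold changes in both models under each scaling, and 2 fell in Selfox, Ercc2 and Ercc5. Ercc2 held 8.29, 11.2 and 11.9 CPM in Control, 7.36, 10.2 and 10.8 in LPS and 7.02, 8.44 and 9.82 in Selfox. Control 55, at 8.29, was the lowest control, and 4 of 10 Selfox libraries lay below it. Selfox differed from Control by -0.31 ± 0.09 on the log2 scale (adjusted p = 0.0106), a call that held in every fit with a library left out and in the 10 other settings. In LPS it was -0.12 ± 0.10 (adjusted p = 0.425), with LPS 4 alone far down at 7.36 CPM. Ercc2 overlaps Klc3, a kinesin light chain gene, in the GRCr8 annotation, so its reads may be split or shared.

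Ercc5 had 14.98, 18.7 and 19.9 CPM in Control and 11.8, 14.3 and 19.7 in Selfox, with 7 of 10 Selfox libraries below every control and Selfox 2, at 19.7, among the controls. It fell by 0.31 on the log2 scale (SE 0.10, adjusted p = 0.0240). Its call was lost without Control 41, 52 or 55 (adjusted p 0.0544, 0.0639 and 0.0519) and without the late-clock libraries (-0.25, adjusted p = 0.0535). In LPS the difference was -0.13 ± 0.11 (adjusted p = 0.442).

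Ercc3 showed groups that do not overlap without passing the test. Control libraries held 21.03, 22.01 and 22.98 CPM and LPS libraries 17.9, 19.9 and 20.9, so all 7 LPS libraries lay below every control, at -0.16 ± 0.06 (adjusted p = 0.0609). With DESeq2, limma voom, upper-quartile scaling or the stricter filter the adjusted p was below 0.05. In LPS such separation held for 3.64% of all genes tested and for 4 of the 45 repair genes, Ercc3, Atm, Nbn and Prkdc. Xpa differed by -0.22 ± 0.09 in Selfox (adjusted p = 0.0579) and -0.07 ± 0.09 in LPS, and Ercc1 by -0.11 ± 0.10 and -0.10 ± 0.10. In Selfox Xpa passed with upper-quartile scaling, the stricter filter or limma voom, and without Control 46 or Selfox 8.

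**Figure D2:**
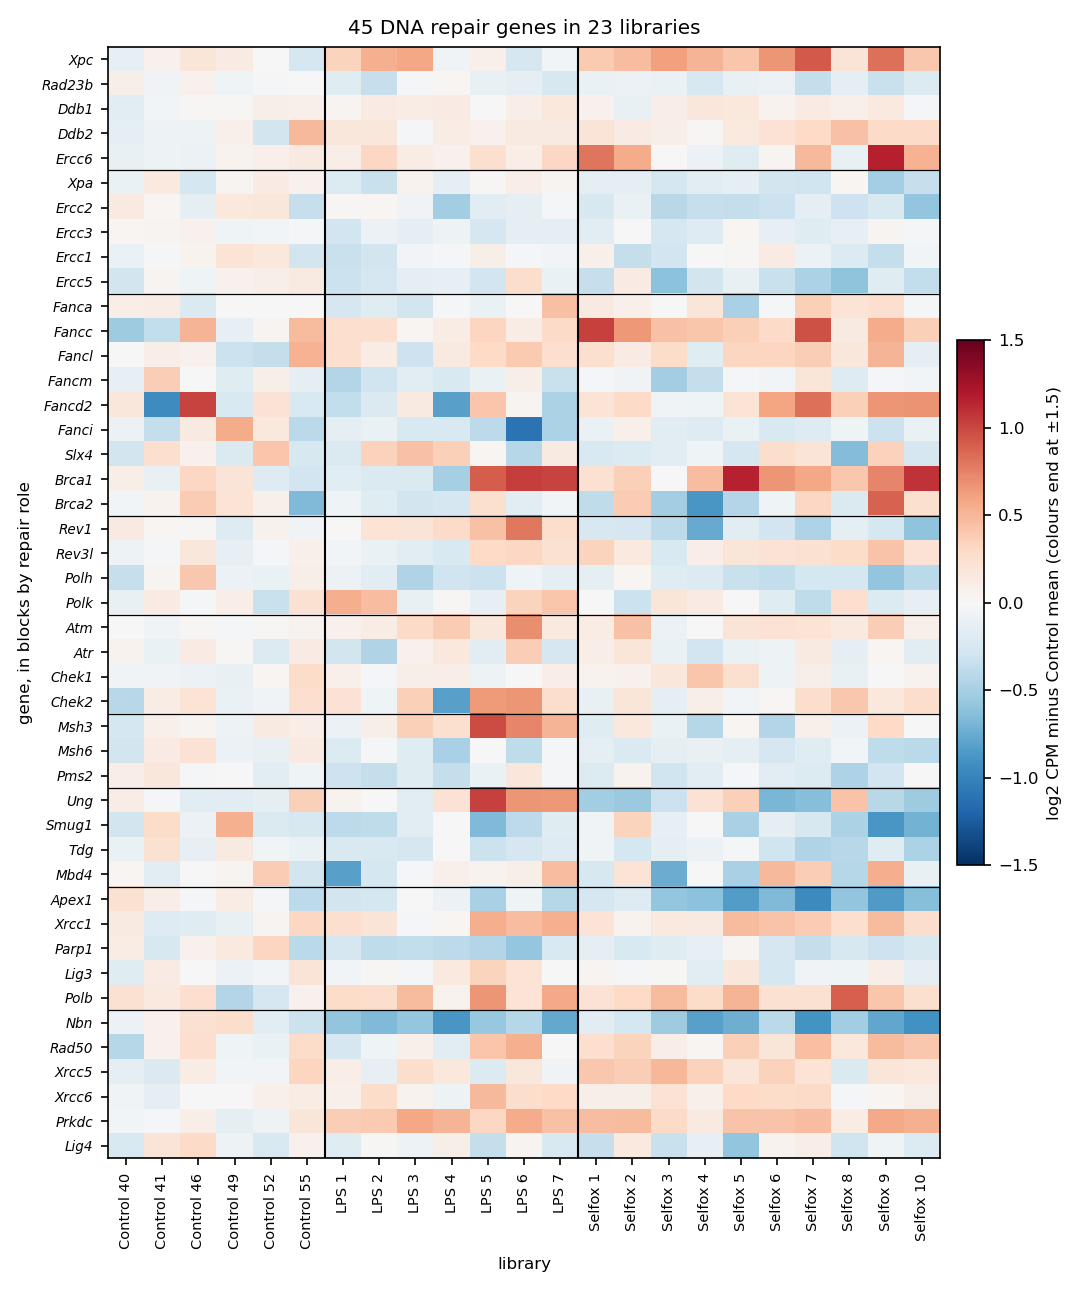
Log2 CPM minus the Control mean (colour, red higher and blue lower, ends at ±1.5) of 45 repair genes (rows, in blocks by role) in 23 libraries (columns). Apex1 and Nbn are blue across Selfox, Prkdc is red across both models, and within LPS, Brca1, Msh3 and Ung are deepest red in LPS 5, LPS 6 and LPS 7.

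Crosslinks between strands are met by Fancm, which binds the stalled fork, by a core complex that holds Fanca, Fancc and the ubiquitin ligase Fancl, and by Fancd2 and Fanci, the pair that this ligase marks. Slx4 is the scaffold of the nucleases that unhook the crosslink, and Brca1 and Brca2 serve recombination. In LPS none of the 9 passed the test, beside 14.7% of all genes tested. In Selfox 1 did, Fancc (11.1%, beside 29.1%). With 9 genes, such counts do not set this step apart. Fancc held 1.47, 2.09 and 3.07 CPM in Control, 2.18, 2.55 and 2.699 in LPS and 2.36, 2.90 and 4.39 in Selfox, the highest being Selfox 1 and Selfox 7 at 4.39 and 4.20. The Control libraries were themselves spread, and 4 of 10 Selfox libraries lay above all of them. Fancc rose by 0.50 ± 0.16 (adjusted p = 0.0190), lost without Control 40 (0.40, adjusted p = 0.0578) or Control 41 (0.44, adjusted p = 0.0539). Fancc overlaps the aminopeptidase gene Aopep in GRCr8.

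Brca1, the breast cancer susceptibility protein that prepares ends for recombination, varied widely between libraries. Its Control libraries ranged from 2.84 to 4.33 CPM and its Selfox libraries from 3.50 to 7.75, with 8 of 10 above every control. Selfox stood at 0.60 ± 0.23 with an adjusted p of 0.0584, past the threshold at 0.0138 without the late-clock libraries (0.56). This difference also passed with DESeq2, in the fit of the 2 groups alone and without Selfox 3. In LPS the libraries lay in separate ranges: LPS 1 to 4 held 3.09, 2.98, 2.98 and 2.45 CPM, while the late-clock libraries LPS 5, 6 and 7 held 6.53, 7.19 and 7.02. The difference from Control was 0.39 ± 0.25 (adjusted p = 0.308) with them and -0.35 (adjusted p = 0.251) without the 5 late-clock libraries. Between the models Brca1 was at 0.20 ± 0.22 (adjusted p = 0.582) with them and 0.91 (adjusted p = 0.00382) without them. The late-clock control, Control 55, had the lowest Brca1 of the 6 controls.

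The remaining crosslink genes gave no call against Control. Fanci was at -0.39 ± 0.14 in LPS (adjusted p = 0.0672) and -0.17 ± 0.13 in Selfox. Fancd2, at low counts, was at -0.26 ± 0.25 and 0.29 ± 0.23, and its libraries ranged from 0.615 to 2.48 CPM in Control alone. Fanca, Fancl, Fancm, Slx4 and Brca2 lay between -0.21 (Fancm) and 0.15 (Fancl) in LPS and between -0.11 (Fancm) and 0.19 (Fancl) in Selfox.

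Translesion synthesis lets a fork copy past an adduct. Rev1 is the scaffold that recruits the other polymerases, Rev3l the catalytic subunit of polymerase zeta, and Polh and Polk encode polymerases eta and kappa; polymerase eta can read through platinum crosslinks on one strand. Rev1 went opposite ways in the models. It held 15.1, 17.5 and 18.9 CPM in Control, 17.3, 20.6 and 29.7 in LPS and 10.2, 14.2 and 15.7 in Selfox. In LPS 6 of 7 libraries lay above every control, in Selfox 8 of 10 lay below every control, and all 10 Selfox libraries lay below every LPS library.

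The log2 fold change of Rev1 was 0.33 ± 0.11 in LPS (adjusted p = 0.0445) and -0.35 ± 0.10 in Selfox (adjusted p = 0.0112). The rise in LPS was the less stable. It was lost in 9 of 13 fits that left out 1 library (Control 41, 46, 49, 52 or 55, or LPS 4, 5, 6 or 7; highest adjusted p 0.121) and was 0.16 (adjusted p = 0.363) without the late-clock libraries. The rise was lost too with upper-quartile scaling, with limma voom, in the fit of the 2 groups alone and with counts thinned to equal depth. LPS 6 had the highest value, 29.7 CPM, and without it the rise was 0.23. The fall in Selfox held in every fit, at -0.39 (adjusted p = 0.00272) without the late-clock libraries. Between the models the difference was -0.67 ± 0.09, a fold of 0.627 (adjusted p = 5.25e-05), and -0.54 (adjusted p = 0.00154) without the late-clock libraries. Groups without overlap in this comparison were found for 1.74% of all genes tested, among the 45 repair genes for Rev1 only, and for 1 of the 111 further repair genes.

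The promoter of Rev1 (RefSeq, GRCr8, chr9:47847278-47847577, minus strand, the upstream of 2 entries) is shown because Rev1 alone of the 45 genes changed in opposite directions in the models. Capitals mark GC boxes (GGGCGG, either strand), 3 here, and the E-box CACGTG, 1 here, a pattern that clock factors and Myc can bind and that reads the same on both strands. The E-box occurs in 6.42% of the 33469 promoters and in 6 of the 44 repair gene entries.
Rev1: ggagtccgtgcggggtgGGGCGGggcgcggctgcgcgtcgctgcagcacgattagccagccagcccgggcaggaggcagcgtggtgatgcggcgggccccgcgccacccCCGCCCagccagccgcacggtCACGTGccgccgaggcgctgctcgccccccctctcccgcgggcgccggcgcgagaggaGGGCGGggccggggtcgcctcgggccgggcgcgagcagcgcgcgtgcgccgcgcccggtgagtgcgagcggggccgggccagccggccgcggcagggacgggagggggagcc

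Polh fell in Selfox by 0.28 (SE 0.10, adjusted p = 0.0344), from 4.84, 6.06 and 8.15 CPM in Control to 4.06, 5.12 and 6.26. Only 3 of 10 Selfox libraries lay below every control, and the call was lost in 6 of 16 fits that left out 1 library (Control 41, 46 or 55, or Selfox 6, 9 or 10); without Control 46, at 8.15 CPM the highest, the difference was -0.18 (adjusted p = 0.17). It was lost too without the low-count filter, in the fit of the 2 groups alone and without the late-clock libraries. In LPS Polh was at -0.23 ± 0.11 (adjusted p = 0.152). Rev3l was at 0.06 ± 0.10 in LPS and 0.20 ± 0.09 in Selfox, and Polk at 0.23 ± 0.13 and -0.06 ± 0.12, none past the test. Rev3l in LPS 5, 6 and 7 stood at 25.96, 26.2 and 24.8 CPM, above LPS 1 to 4 at 18.05 to 20.5. Between the models Rev3l was at 0.14 ± 0.09 (adjusted p = 0.310), and at 0.32 (adjusted p = 0.0265) without the late-clock libraries.

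The checkpoint kinases Atm and Atr sense breaks and stalled forks and act through Chek2 and Chek1. Atm rose in LPS, and Atr, Chek2 and the row named Chek1 did not pass the test in either model. For Atm the Control libraries lay close together, 28.5, 29.6 and 30.6 CPM, and all 7 LPS libraries, 31.02, 33.4 and 47.9, lay above them. Atm rose by 0.28 ± 0.09 (adjusted p = 0.0374), and the call was lost in 8 of 13 fits that left out 1 library (Control 40, 41, 46, 49 or 52, or LPS 3, 4 or 6; highest adjusted p 0.0807), in the fit of the 2 groups alone and with upper-quartile scaling. Without LPS 6, the highest at 47.9 CPM, it was 0.20, and without the late-clock libraries 0.23 (adjusted p = 0.117). In Selfox 8 of 10 libraries lay above every control, at 0.17 ± 0.08 (adjusted p = 0.122). Atr was at -0.06 ± 0.11 and -0.04 ± 0.10, and Chek2 at 0.23 ± 0.18 and 0.11 ± 0.17.

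The row named Chek1 held 164, 171 and 216 CPM in Control and differed by 0.03 ± 0.08 in LPS and 0.09 ± 0.07 in Selfox. It is not read here as the level of the kinase, but it is counted among the 45 throughout, and its 0.03 in LPS is their median. Stt3a, a neighbour within 5000 bases in GRCr8 that encodes a subunit of the enzyme adding sugar chains to secreted proteins, had no row of its own in the table used here, and whether the Chek1 row holds its reads was not tested.

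Mismatch repair finds mispairs through Msh6 and Msh3, and Pms2 then cuts the strand. Msh3 rose in LPS, and Msh6 and Pms2 did not pass the test in either model with all libraries. Its Control libraries held 9.36, 11.7 and 12.4 CPM, LPS 10.6, 14.4 and 22.2 and Selfox 8.26, 10.9 and 13.8. The log2 fold change was 0.44 ± 0.14 in LPS (adjusted p = 0.0419) and -0.06 ± 0.13 in Selfox (adjusted p = 0.781), and Selfox was below LPS by 0.50 (SE 0.12, adjusted p = 0.00920). The highest LPS values were those of the late-clock libraries, 22.2, 18.7 and 16.1 CPM in LPS 5, 6 and 7. Without the 5 late-clock libraries the difference was 0.17 in LPS (adjusted p = 0.461) and -0.20 between the models (adjusted p = 0.321), both calls lost. The rise in LPS was also lost in 8 of 13 fits that left out 1 library (Control 40, 41, 46, 49 or 52, or LPS 5, 6 or 7; highest adjusted p 0.104). The same call was lost with upper-quartile scaling, with limma voom, in the fit of the 2 groups alone and with counts thinned to equal depth. Msh6 was at -0.19 ± 0.09 in LPS and -0.21 ± 0.08 in Selfox (adjusted p = 0.154 and 0.0583), and Pms2 at -0.16 ± 0.10 and -0.17 ± 0.09. In Selfox Msh6 passed with upper-quartile scaling, limma voom or thinned counts and in the fit of the 2 groups alone. It also passed without Control 40 or Selfox 8. Without the late-clock libraries Pms2 was at -0.32 in LPS (adjusted p = 0.0311).

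**Figure D3:**
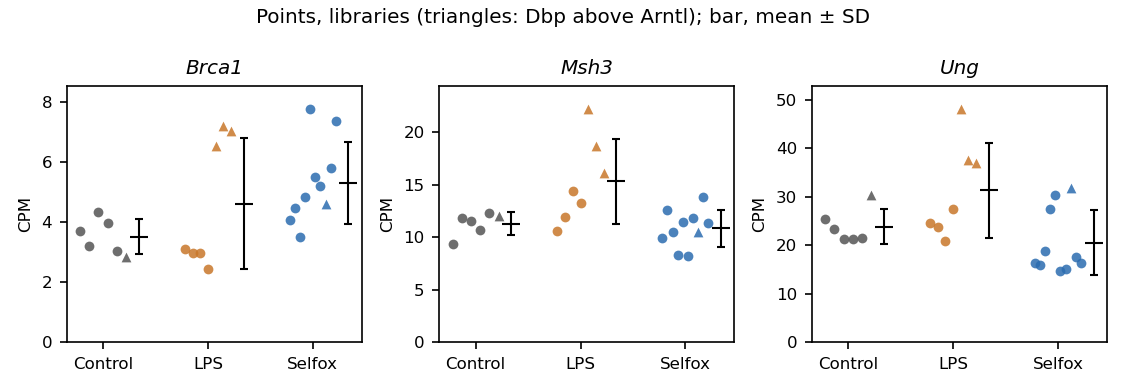
CPM of Brca1, Msh3 and Ung (vertical axes, from 0) in each library (points) by group, with mean ± SD; triangles are the 5 late-clock libraries, in which Dbp exceeded Arntl. The 3 triangles of LPS are the highest LPS libraries for each gene, for Brca1 at 6.53, 7.19 and 7.02 CPM; the Control triangle is the lowest control for Brca1 and the highest for Ung.

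Ung is the main glycosylase for uracil in DNA, Smug1 and Tdg also remove uracil or fluorouracil, and Mbd4 acts on thymine and uracil opposite guanine. Tdg fell in Selfox, from 30.1, 31.2 and 38.4 CPM in Control to 23.7, 28.1 and 32.3, with 7 of 10 libraries below every control. Its log2 fold change was -0.24 ± 0.07 (adjusted p = 0.0190), lost without Control 41 (-0.18, adjusted p = 0.0874) or Control 49 (-0.21, adjusted p = 0.0535). In LPS 6 of 7 libraries lay below every control, at -0.21 ± 0.08 (adjusted p = 0.0763). Tdg overlaps Glt8d2, a glycosyltransferase-like gene, in GRCr8.

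Ung did not pass the test against Control in either model, but the models differed. Its libraries held 21.3, 22.4 and 30.4 CPM in Control, 20.97, 27.4 and 48.1 in LPS and 14.7, 17.1 and 31.9 in Selfox. In LPS the late-clock libraries 5, 6 and 7 were the highest, at 48.1, 37.5 and 37.1 CPM, against 20.97 to 27.4 in LPS 1 to 4. Selfox libraries lay in separate ranges as well: Selfox 4, 5 and 8 held 27.6, 30.4 and 31.9 CPM and the other 7 held 14.7 to 18.9, below every control. Against Control Ung was at 0.39 ± 0.21 in LPS and -0.22 ± 0.19 in Selfox (adjusted p = 0.223 and 0.423). Between the models it was -0.61 ± 0.18 (adjusted p = 0.0272), lost without LPS 5, 6 or 7 (adjusted p 0.0833, 0.0594 and 0.0607), in the fit of the 2 groups alone and without the late-clock libraries (-0.33, adjusted p = 0.229). Smug1 was at -0.33 ± 0.17 and -0.27 ± 0.16 and Mbd4 at -0.03 ± 0.21 and 0.00 ± 0.20.

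After the glycosylase, Apex1 cuts the strand at the empty site, Polb fills the gap, Lig3 seals it with its scaffold Xrcc1, and Parp1 marks strand breaks. These steps moved in both directions in Selfox: Apex1 fell while Xrcc1 and Polb rose. Apex1 had 15.8, 21.2 and 24.3 CPM in Control, 14.8, 17.2 and 20.5 in LPS and 10.7, 13.4 and 17.997 in Selfox. Of the 10 Selfox libraries 8 lay below every control and 8 below every LPS library; Selfox 1 and 2, at 17.3 and 17.997, were the exceptions, and Control 55, at 15.8, was the lowest control. The log2 fold change in Selfox was -0.61 ± 0.11 (adjusted p = 0.000239), a fold of 0.655 and the most negative of the 45. It held in every fit, as -0.68 to -0.56 over the fits that left out 1 library.

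In LPS Apex1 was at -0.23 ± 0.12 (adjusted p = 0.191), and Selfox was below LPS by 0.38 (SE 0.10, adjusted p = 0.0152). That call held in the 17 fits that left out 1 library and in the 10 other settings, but in the 14 libraries numbered 1 to 7 alone it was at -0.34 (adjusted p = 0.079).

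The promoter of Apex1 (RefSeq, GRCr8, chr15:26617976-26618275, plus strand) is shown because Apex1 had the largest fall in Selfox and was lower there than in both other groups. Capitals mark 3 copies each of the E-box CACGTG and of the CCAAT box (CCAAT on either strand, a pattern that NF-Y can bind) and 1 GC box (GGGCGG). Of the 33469 promoters 19, or 0.0568%, held 3 or more E-boxes, and 3.02% held 3 or more CCAAT boxes. At least 1 E-box stood in 6.42% and at least 1 CCAAT box in 37.5%. These matches describe letters and do not show binding.
Apex1: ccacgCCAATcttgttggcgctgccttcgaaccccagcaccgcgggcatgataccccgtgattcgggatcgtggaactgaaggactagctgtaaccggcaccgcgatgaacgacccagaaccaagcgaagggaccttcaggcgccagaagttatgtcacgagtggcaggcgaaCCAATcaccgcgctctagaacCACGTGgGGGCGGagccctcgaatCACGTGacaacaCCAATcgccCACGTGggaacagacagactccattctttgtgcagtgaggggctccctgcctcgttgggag

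Polb held 7.51, 10.96 and 12.1 CPM in Control, 10.6, 12.3 and 16.1 in LPS and 11.8, 12.4 and 18.98 in Selfox, where Selfox 8 alone reached the highest value. It rose in Selfox by 0.37 ± 0.12 (adjusted p = 0.0204), lost without Control 49 (0.29, adjusted p = 0.0686) or Control 52 (0.33, adjusted p = 0.0529). Xrcc1 had 10.7, 12.01 and 15.3 CPM in Control and 12.8, 14.7 and 17.2 in Selfox and rose by 0.28 ± 0.10 (adjusted p = 0.0364), a call lost in 7 of 16 fits that left out 1 library (Control 41, 46 or 49, or Selfox 5, 6, 7 or 9). In LPS the values were close to these without passing, 0.35 ± 0.13 for Polb and 0.29 ± 0.10 for Xrcc1 (adjusted p = 0.0639 and 0.0657). Xrcc1 in LPS was highest in the late-clock libraries 5, 6 and 7, at 17.9, 16.96 and 17.8 CPM, and was at 0.17 (adjusted p = 0.278) without the late-clock libraries.

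Parp1 fell in LPS, from 37.6, 53.02 and 62.4 CPM in Control to 33.4, 38.2 and 42.6, by 0.39 (SE 0.09, adjusted p = 0.00582). Control 55, at 37.6, was the lowest control and only 2 of 7 LPS libraries lay below it, yet the call held in each fit that left out 1 library (-0.46 to -0.32) and in the 10 other settings. In Selfox, at 39.02, 42.3 and 51.1 CPM, the difference was -0.22 ± 0.08 with an adjusted p of 0.0518, and -0.29 (adjusted p = 0.00774) without the late-clock libraries. It also passed there with upper-quartile scaling, the stricter filter or limma voom, and without Control 41, Control 55 or Selfox 5. Lig3 was at 0.09 ± 0.08 and -0.04 ± 0.07.

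**Figure D4:**
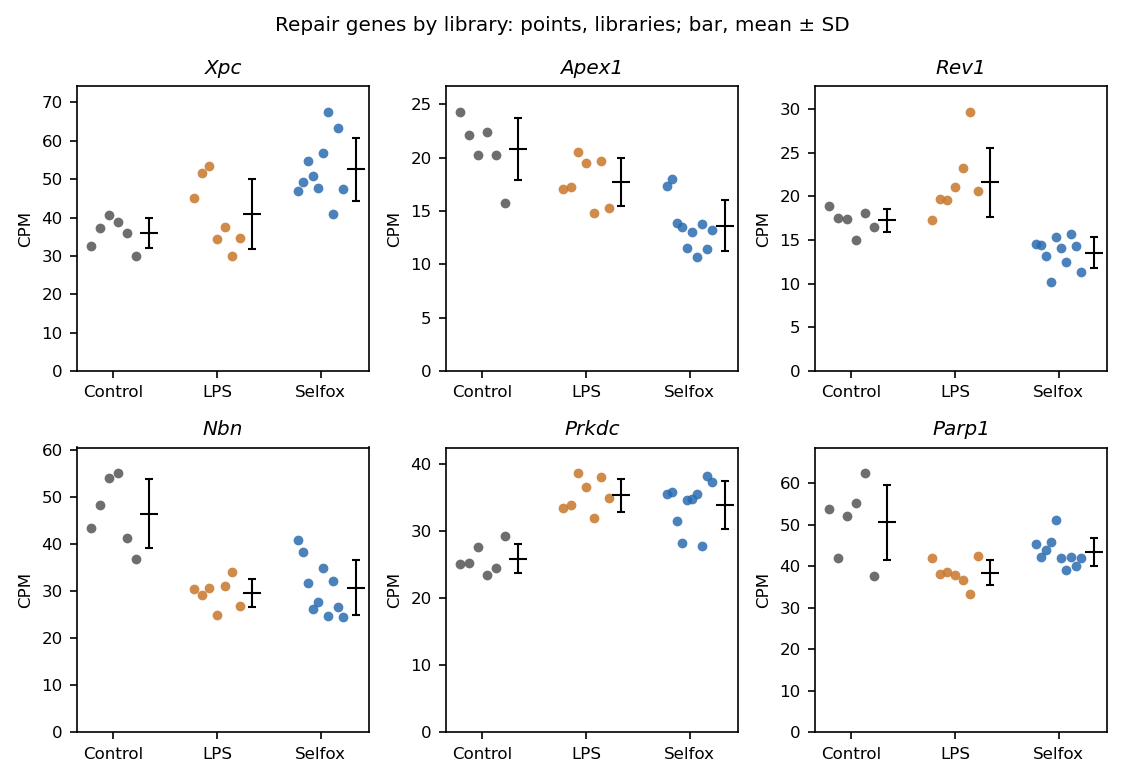
CPM (vertical axes, from 0) of Xpc, Apex1, Rev1, Nbn, Prkdc and Parp1 in each library (points) by group, with mean ± SD. Every Selfox point of Xpc lies above the highest control (40.7 CPM), every LPS point of Nbn below the lowest (36.7), and the LPS and Selfox points of Rev1 do not overlap.

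Of the genes that meet double-strand breaks, Nbn fell and Prkdc rose in both models. Nbn and Rad50 belong to the complex that first binds a broken end and activates Atm. Nbn held 36.7, 45.8 and 54.97 CPM in Control, 25.002, 30.5 and 34.1 in LPS and 24.5, 29.6 and 40.9 in Selfox. All 7 LPS libraries and 8 of 10 Selfox libraries lay below every control, Selfox 1 and 2 being the exceptions at 40.9 and 38.2. The log2 fold change was -0.65 ± 0.12 in LPS (adjusted p = 0.00112) and -0.60 ± 0.11 in Selfox (adjusted p = 0.000363), folds of 0.638 and 0.662, and the models differed by 0.05 ± 0.11 (95% interval -0.17 to 0.27). Rad50, its partner, was at 0.08 ± 0.12 in LPS and 0.26 ± 0.12 in Selfox (adjusted p = 0.699 and 0.0917). With the late-clock libraries left out, Rad50 was at 0.33 in Selfox (adjusted p = 0.0160) and was higher in Selfox than in LPS by 0.39 (adjusted p = 0.0269), in place of 0.18 ± 0.11 (adjusted p = 0.302).

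End joining is led by the Ku pair Xrcc6 and Xrcc5, which slide onto the end, and by the kinase Prkdc that they recruit; Lig4 seals the joint. Prkdc had 23.5, 25.2 and 29.3 CPM in Control, 32.05, 34.9 and 38.6 in LPS and 27.8, 35.2 and 38.3 in Selfox. All 7 LPS libraries and 8 of 10 Selfox libraries lay above every control, with Selfox 4 and 8 at 28.3 and 27.8. The rise was 0.45 ± 0.08 in LPS (adjusted p = 0.000598) and 0.39 ± 0.07 in Selfox (adjusted p = 0.000317), and the models differed by -0.06 ± 0.07 (95% interval -0.20 to 0.08). The calls of Nbn and Prkdc against Control held in every fit in both models. Xrcc5 was at 0.04 ± 0.10 and 0.25 ± 0.10, Xrcc6 at 0.20 ± 0.08 and 0.14 ± 0.08, and Lig4 at -0.10 ± 0.11 and -0.16 ± 0.11, none past the test (adjusted p of Xrcc5 in Selfox 0.0552). Without the late-clock libraries Xrcc5 rose in Selfox by 0.36 (adjusted p = 0.00215) and Xrcc6 by 0.18 (adjusted p = 0.0497). Xrcc5 also passed without Control 55 or Selfox 8, with DESeq2 or limma voom, and with thinned or halved counts.

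The intervals show what the design could resolve for genes that did not pass. In LPS the 95% interval of each of the 45 genes lay within 2-fold in either direction, and in 35 within 1.5-fold. In Selfox it lay within 2-fold for 44, the exception being Brca1 (0.11 to 1.08 on the log2 scale), and within 1.5-fold for 35. At an unadjusted p below 0.05 there were 15 of the 45 genes in LPS, 23 in Selfox and 11 between the models. The share of all genes at that threshold is not given here, so these counts do not set repair genes apart. Calls that held in every left-out fit and in the 10 other settings were those of Parp1, Nbn and Prkdc in LPS, of Xpc, Ercc2, Rev1, Apex1, Nbn and Prkdc in Selfox, and of Rev1 and Apex1 between the models. Because 16 of the 46 genes overlap another protein-coding gene in GRCr8 and the strand setting of the counting is not given in the sources used here, values of overlapping genes are uncertain.

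Around these genes stand 115 further repair genes from a pathway list, of which 111 were tested. In LPS 3 rose and 9 fell (10.8%, beside 14.7% of all genes tested). In Selfox 13 rose and 18 fell (27.9%, beside 29.1%). Between the models 11 were higher in Selfox and 4 lower (13.5%, beside 14.5%). For nucleotide excision repair, Gtf2h1 and Gtf2h3, further subunits of TFIIH, fell in both models: Gtf2h1 by 0.35 in LPS and 0.58 in Selfox, with all 7 and all 10 libraries below every control. The cullin Cul4a, of the ubiquitin ligase that holds Ddb1 and Ddb2, rose by 0.20 and 0.31, and Cetn2, the third partner of Xpc, by 0.47 and 0.42. The other nucleotide excision genes that changed in Selfox were Rpa1 and Rpa3, which rose by 0.54 and 0.37, and Rpa2, Ercc8 and Xab2, which fell; Rpa1 to Rpa3 code for the 3 subunits of one single-strand binding protein.

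Apex2, a relative of Apex1 with a minor role at empty sites, fell by 0.42 in LPS and 0.68 in Selfox, again with all 7 and all 10 libraries below every control. Groups that do not overlap were found for 3 of the 111 further repair genes in LPS and 4 in Selfox, beside 3.64% and 4.91% of all genes tested. Of 14 further base excision genes only Apex2 changed in LPS (7.14%, beside 14.7%). In Selfox 2 others rose, and with Apex2 that is 21.4%, beside 29.1%. H2afx, the histone whose phosphorylated form marks breaks, fell by 0.69 and 0.87. It is 1 of 21 further break and checkpoint genes, of which 2 fell and none rose in LPS (9.52%, beside 14.7%). In Selfox 4 of the 21 rose and 4 fell (38.1%, beside 29.1%). Of 7 further translesion genes 1 rose and 1 fell in LPS (28.6%, beside 14.7% of all genes tested), with a median log2 fold change of -0.40. In Selfox 1 rose and none fell (14.3%, beside 29.1%). The gene that rose in both was Primpol, a primase that restarts stalled forks, by 0.65 in LPS and 0.56 in Selfox. Of 30 further crosslink and recombination genes none rose in LPS and 2 fell, Rad54l and Ube2t (6.67%, beside 14.7% of all genes tested). In Selfox 1 rose, Brip1 (0.84 ± 0.26, adjusted p = 0.0174), and 5 fell, among them Usp1, which removes ubiquitin from Fancd2 (-0.42 ± 0.09, adjusted p = 0.00186). That is 20% of the 30, beside 29.1% of all genes tested. Between the models 5 were higher in Selfox, among them Brip1 at 1.24 ± 0.24 (adjusted p = 0.00120) and Bard1, Rad54l and Ube2t. A further 2 were lower, Fance, of the Fanconi core complex (-0.29 ± 0.08, adjusted p = 0.0122), and Usp1 (-0.30 ± 0.09, adjusted p = 0.0253). Between the models 23.3% of the 30 changed, beside 14.5% of all genes tested.

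Proliferation genes differed mainly in LPS and between the models. Of 27 tested, 8 fell in LPS and none rose, 29.6% beside 14.7% of all genes tested. Between the models 19 were higher in Selfox and none lower, 70.4% beside 14.5%. In Selfox against Control Tyms and Tk1 rose and Mcm7 fell, 11.1% beside 29.1%. The CPM of all 27 summed to 82.5 to 136 in Control, 61.5 to 98.0 in LPS and 89.9 to 166 in Selfox. The 8 falls in LPS became 1 without Control 49 and 13 without Control 55, and 2 to 4 without Control 40 or 46 or LPS 1, 4, 6 or 7. The part of dividing cells in the differences of Brip1, Bard1 and Ube2t was not tested.

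Target genes of p53 outside repair, 20 tested, gave 7 rises and 1 fall in Selfox (40%, beside 29.1% of all genes tested) and 3 rises and 1 fall in LPS (20%, beside 14.7%). Eda2r, a death receptor family gene, rose most in Selfox (3.65 ± 0.56, adjusted p = 6.28e-05), from 0 to 0.221 CPM in Control to 0.450 to 1.64. Bax and Sesn1 rose by 0.49 and 0.82. The count of 4 in LPS fell to 1 or 2 in 11 of 13 fits that left out 1 library, all but those without Control 55 or LPS 6. Of repair genes that p53 is known to activate in human cells, Xpc rose in Selfox, Polh fell, and Ddb2 was at 0.19 ± 0.09 (adjusted p = 0.108) with all libraries and passed without Control 55.

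The fall of the 11 Kupffer cell markers in Selfox, with a median log2 fold change of -1.21, stood beside these repair values. T and NK cell markers, summed, were at 29.8 to 41.6 CPM in Control and 16.5 to 26.2 in Selfox, where 4 of 10 tested fell. Of 8 B cell markers 6 fell in Selfox, with a median log2 fold change of -0.72, and the sum of all 9 with a row was 15.1 to 18.7 CPM in Control and 9.35 to 17.05 in Selfox. Neutrophil markers went the other way: 5 of 9 rose and none fell, with a median of 2.07, and the sum of all 11 with a row was 4.78 to 13.4 CPM in Control and 5.58 to 129 in Selfox. Of 8 cholangiocyte markers 3 rose and none fell in Selfox, and of 10 stellate cell markers 3 rose and 1 fell. These counts stand beside the 29.1% of all genes that changed in Selfox. The part of these cell types in the repair values was not tested.

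**Figure D5:**
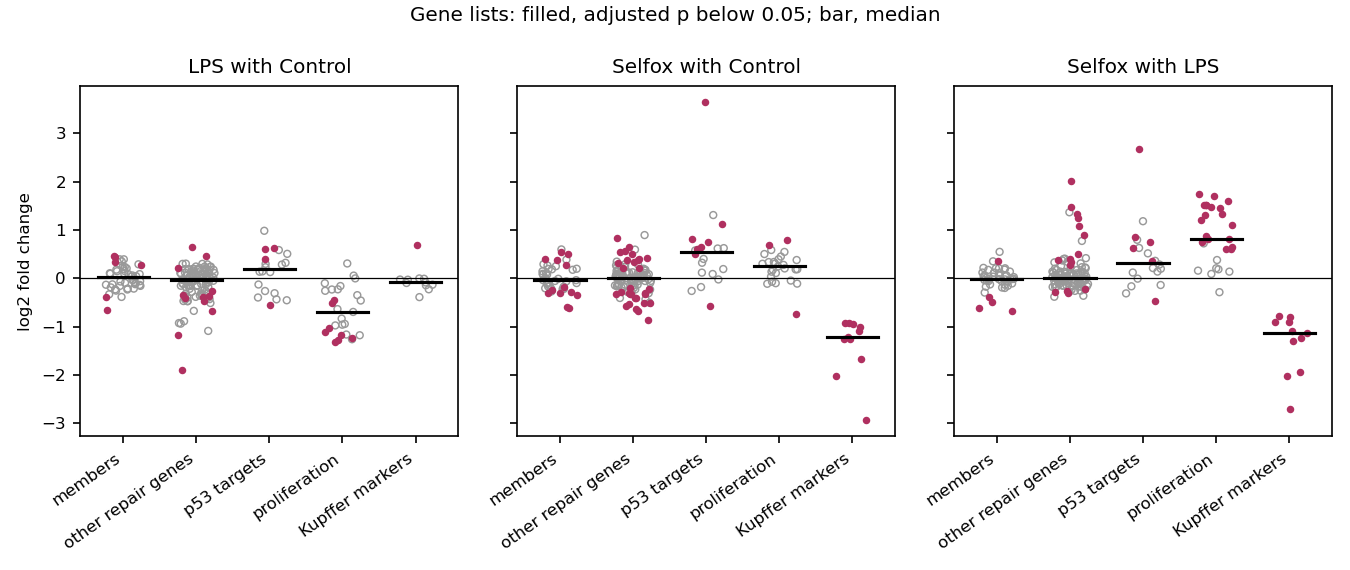
Log2 fold change (vertical axis) of each tested gene (points) in 5 lists for the 3 comparisons; filled points have an adjusted p below 0.05 and bars are medians, and "members" are the 45 repair genes described here. Repair genes lie near 0 in each panel (medians 0.03, -0.04 and -0.01), while all 11 Kupffer markers lie below 0 in both panels with Selfox.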

How the data were processed

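The deposited table holds whole-number counts of reads per gene for 23 rat liver libraries (6 Control, 7 LPS and 10 Selfox, grouped by the labels). Per the submitters' processing notes, the authors used FastQC, Trim Galore, STAR 2.7.9a and featureCounts of Subread 2.0.3, and per the labels' protocols the libraries came from a stranded mRNA kit. The genome build, annotation and strand setting were not given in the sources used here. Even numbers made up 66.1% to 74.9% of counts from 1 to 9, so some counts may hold both ends of a read pair; one alternative divided every count by 2.

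Genes were filtered with filterByExpr (minimum count 10), which kept 15079 of the 21753 genes with any count. All 3 groups were fitted together with TMM scaling, robust dispersion and the quasi-likelihood F test of edgeR; p-values were adjusted over all genes tested by the Benjamini-Hochberg method, with a threshold of 0.05 (R 4.3.3, edgeR 4.0.16, limma 3.58.1, DESeq2 1.42.0). SE was derived from each log2 fold change and its F. The steps were tested on simulated data. No 2 libraries of a group agreed within counting noise (smallest chi-square per degree of freedom 27.4).

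The genes described and the lists around them were chosen with earlier results of these data known. Genes past the threshold against Control are given in full, with members of the same step; of other repair genes, up to 4 per role and comparison by adjusted p, and of the p53, proliferation and marker lists up to 3, among those past the threshold. Promoters were matched by symbol to RefSeq (GRCr8), motifs were searched on both strands, and gene overlaps were taken from the RefSeq gene table of that assembly.

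Alternatives were RLE and upper-quartile scaling, no filter or a stricter one (minimum count 50), limma voom with sample weights, DESeq2, fits of the 2 groups compared alone, each library left out, counts thinned to equal depth, counts divided by 2, the fit without the 5 late-clock libraries, and a replicate block for Selfox and LPS. Values of some genes outside the 46 members are counted in their lists but not reported here by name.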

Additional observations from a re-analysis of the deposited data

Results flagged for a closer look

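Among 135 groups of library values (45 repair genes in 3 groups), 7 held a library whose gap to the nearest other library was large for the range of its group; chance alone gives about 1 in 20. Values are in CPM. Ercc2 was low in LPS 4, at 7.36 against 9.45 to 10.8 in the other LPS libraries. Tdg was high in LPS 4, at 32.7 against 26.2 to 28.5. Brca2 was high in LPS 5, at 2.80 against 1.95 to 2.29. Ercc5 was high in LPS 6, at 21.7 against 14.4 to 16.8. Fanca was high in LPS 7, at 2.41 against 1.45 to 1.75. The Chek1 row was high in Control 55, at 215.6 against 164 to 182 in the other controls. Polb was high in Selfox 8, at 19.0 against 11.8 to 14.5. Of these, LPS 5, LPS 6, LPS 7, Control 55 and Selfox 8 are late-clock libraries and LPS 4 is not; the part of the clock in these values was not tested.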

How the results depend on the processing

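No result of the 45 repair genes changed direction while called. Over the fits that left out 1 library, LPS with Control gave 3 to 8 repair genes, 9 to 17 other repair genes and 1409 to 2723 genes in all. Selfox with Control gave 8 to 17, 22 to 31 and 3638 to 4705. Selfox with LPS gave 3 to 7, 10 to 17 and 1830 or more. Fitted with the 2 groups alone, LPS with Control gave 3 repair genes; without the 5 late-clock libraries Selfox with LPS gave 1434 genes in all. Each of these low counts comes from a fit with fewer libraries. The other settings kept the counts of repair genes within 1.5 times: 4 to 8 in LPS, 11 to 19 in Selfox and 4 to 6 between the models. Of 111 results that did not pass, 24 passed under at least 1 setting. Upper-quartile scaling put the median of all genes at -0.02 in LPS, in place of 0.01.

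LPS and Selfox libraries share replicate numbers 1 to 7, but the numbers did not pair them: correlations of same-numbered libraries ran from -0.064 to 0.18, with 1 of 7 above 0.1 and 1 of 7 highest with its own number. With a replicate block, Selfox with LPS gave 1259 genes, 3 repair genes and 5 other repair genes; the same 14 libraries with no replicate block gave 1617, 4 and 8.

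Depth was lower in Control than in the models; with counts thinned to equal depth 4, 15 and 5 repair genes changed in the 3 comparisons. Intervals and p-values cover library spread, not the unknown counting of overlapping genes.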

Other observations

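Of the 39 repair genes with a promoter entry, 14 had a neighbour that starts within 1000 bases on the opposite strand, and in 11 pairs the neighbour was tested. These neighbours were chosen after values were seen. Osgep, which encodes a transfer RNA modifying enzyme and faces Apex1, fell with it in Selfox, by 0.37 (SE 0.10, adjusted p = 0.00571 in edgeR's quasi-likelihood test), with 4.48 to 5.997 CPM in Control and 2.67 to 4.68 in Selfox. Xpo5, the exporter of microRNA precursors that faces Polh, fell by 0.40 in Selfox (adjusted p = 0.000469) and by 0.43 in LPS (adjusted p = 0.00127), while Polh fell by 0.28 in Selfox (adjusted p = 0.0344) and was at -0.23 in LPS (adjusted p = 0.152). Aimp2, a scaffold of transfer RNA synthetases that faces Pms2, fell by 0.39 in LPS and 0.36 in Selfox, where Pms2 did not pass the test. In other pairs 1 gene passed where its partner did not. The difference within a pair was not tested. Emc3, which faces Fancd2, fell by 0.18 in LPS (adjusted p = 0.0435) and by 0.39 in Selfox (adjusted p = 3.03e-05). Fancd2 was at -0.26 and 0.29 there, without passing. Npat, a regulator of histone genes that faces Atm, fell by 0.48 in Selfox (adjusted p = 0.00258), where Atm was at 0.17, and was at -0.08 in LPS, where Atm rose. Lsm3, an RNA-binding protein gene that faces Xpc, was at -0.13 in Selfox (adjusted p = 0.407), where Xpc rose by 0.55. Tkfc, a kinase of fructose metabolism that faces Ddb1, rose by 1.04 in LPS and 1.25 in Selfox, where Ddb1 was at 0.09 and 0.08.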
